A study of Mus musculus with 8 samples.

Results

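Several of the genes whose products form the circadian clock were followed in liver endothelial cells (ECs), the cells that line blood vessels, with and without the receptor LRP1. The members were the rows of the deposited expression table whose gene symbol was Arntl, Clock, Npas2, Per1, Per2, Per3, Cry1, Cry2, Nr1d1 or Dbp, and all 10 were found among its 22520 genes. The LRP1 eKO mice were LRP1 f/f with the inducible recombinase transgene Cdh5-CreER+/-, and the WT mice were their LRP1 f/f littermates without the transgene (Cdh5-CreER-/-), so that both groups carried the floxed alleles and LRP1 eKO mice alone carried CreER. All mice were C57BL/6 at postnatal day 14, and each group had 4 mRNA-seq libraries. The Cdh5 promoter drives CreER in ECs of every organ, not in those of the liver alone, and the schedule of Cre induction is not given in the sources used here. The cells were selected with antibody against the EC surface protein PECAM-1, and the labels name them liver microvesicular cells. Whether each library came from a separate mouse is not stated, so the p-values measure the spread between these libraries, which may be technical.

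In the clock, the transcription factors BMAL1 (the product of Arntl) and CLOCK, or its relative NPAS2, bind E-box sequences and switch on the Per and Cry genes, whose proteins return to the nucleus and inhibit them. The same activators drive Nr1d1, which encodes the nuclear receptor REV-ERBα, a repressor of Arntl, Clock and Npas2, and Dbp, an output factor that binds D-box sequences in further clock genes. In liver, Nr1d1, Dbp and the Per genes are therefore high in a part of the day when Arntl and Npas2 are low, and the reverse holds in the opposite part of the day. The comparison of the genotypes was made to see whether the preparations lay at different phases of this cycle, since the mice were kept on a light/dark cycle and the hour of collection is not given in the sources used here.

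The letters that the clock factors read are shown here for 6 members, because the activator, repressor and output genes are tied together through them. Each run covers 250 bases before to 50 bases after an annotated start, written 5′ to 3′ on the gene's strand, from RefSeq on GRCm38.p6. Capitals mark matches, on either strand, to the E-box CACGTG, the second E-box form CACGTT, the D-box (TTATGTAA or TTACGTAA) and the half-site AGGTCA bound by ROR and REV-ERB receptors, and no 2 matches overlapped. For Arntl the window is chr7:113207261-113207560 on the plus strand, for Per1 chr11:69098699-69098998 on the plus strand, for Per3 chr4:151044616-151044915 on the minus strand, for Cry1 chr10:85185005-85185304 on the minus strand, for Nr1d1 chr11:98775328-98775627 on the minus strand and for Dbp chr7:45704997-45705296 on the plus strand.
Arntl: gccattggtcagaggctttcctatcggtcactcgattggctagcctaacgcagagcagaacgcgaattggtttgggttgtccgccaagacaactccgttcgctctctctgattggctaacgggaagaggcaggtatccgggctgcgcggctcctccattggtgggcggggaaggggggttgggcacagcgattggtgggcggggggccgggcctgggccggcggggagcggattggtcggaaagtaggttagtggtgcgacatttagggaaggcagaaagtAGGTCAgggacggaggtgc
Per1: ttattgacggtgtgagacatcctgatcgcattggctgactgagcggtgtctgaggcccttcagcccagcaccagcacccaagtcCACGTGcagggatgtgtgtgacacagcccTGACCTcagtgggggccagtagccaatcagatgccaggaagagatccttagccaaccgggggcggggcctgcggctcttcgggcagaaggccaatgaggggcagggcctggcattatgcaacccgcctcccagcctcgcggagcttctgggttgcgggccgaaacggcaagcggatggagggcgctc
Per3: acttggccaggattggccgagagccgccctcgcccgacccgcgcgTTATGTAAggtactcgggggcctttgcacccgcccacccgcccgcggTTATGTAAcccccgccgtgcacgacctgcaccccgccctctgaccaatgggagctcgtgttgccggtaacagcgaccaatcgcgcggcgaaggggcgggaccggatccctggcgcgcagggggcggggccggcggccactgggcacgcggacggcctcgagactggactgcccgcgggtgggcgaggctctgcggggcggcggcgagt
Cry1: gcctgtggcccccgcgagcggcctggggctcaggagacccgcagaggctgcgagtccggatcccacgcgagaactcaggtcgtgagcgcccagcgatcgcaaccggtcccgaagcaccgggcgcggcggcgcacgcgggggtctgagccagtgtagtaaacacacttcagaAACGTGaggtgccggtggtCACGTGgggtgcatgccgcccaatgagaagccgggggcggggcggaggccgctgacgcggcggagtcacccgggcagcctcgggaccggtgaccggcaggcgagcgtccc
Nr1d1: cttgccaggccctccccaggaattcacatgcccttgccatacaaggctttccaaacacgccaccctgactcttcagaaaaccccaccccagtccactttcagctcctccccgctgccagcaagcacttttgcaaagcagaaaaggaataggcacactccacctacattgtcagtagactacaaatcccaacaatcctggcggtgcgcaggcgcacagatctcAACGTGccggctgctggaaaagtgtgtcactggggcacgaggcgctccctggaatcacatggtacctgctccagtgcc
Dbp: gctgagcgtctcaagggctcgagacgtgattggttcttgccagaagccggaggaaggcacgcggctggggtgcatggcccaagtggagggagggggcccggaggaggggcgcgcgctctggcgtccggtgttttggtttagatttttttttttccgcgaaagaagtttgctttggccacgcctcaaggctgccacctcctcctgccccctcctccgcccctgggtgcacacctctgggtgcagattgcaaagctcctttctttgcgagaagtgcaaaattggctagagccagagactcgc

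Windows were found for 9 of the 10 members, 13 windows in all, and Per2 had none. The E-box CACGTG lay in windows of 2 members, 166 bases before the Per1 start and 60 bases before the Cry1 start, and 7.15% of all 32851 promoter windows hold it. The form CACGTT was found in 3 members, Cry1, Cry2 and Nr1d1, where it began 28 bases before the start, against 4.68% of all windows. The D-box was found in 1 member, Per3, which holds it at both 205 and 158 bases before the start, against 1.06% of all windows. The AGGTCA half-site was found in 3 members, Arntl, Clock and Per1, against 16.3% of all windows, and in Arntl it lay 31 bases after the start. The Dbp window held no match. A member was counted if any of its windows matched, while the shares of all windows are per window. Arntl had 2 windows, Clock 3 and Per1 2. A match describes the letters alone, and binding was not measured.

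The values are a quantile-normalized signal, a scale on which the sorted values of all libraries were made almost equal, with library sums between 484445 and 485947, so that the depth of each library is unknown. Fold changes are the LRP1 eKO mean minus the WT mean of log2(signal + 1), a scale that understates changes of low genes. They were tested with limma over the 11391 genes whose signal reached 1 or more in 4 or more libraries, and a gene was called at an adjusted p under 0.05. The targeted gene Lrp1 had signals of 56.2 to 85.1 in WT and 2.16 to 6.01 in LRP1 eKO libraries. WT library 4 lay farthest from its group median for 61.7% of the genes tested and LRP1 eKO library 2 for 37.2%. Counts of members or of listed genes called that changed without both libraries are given below.

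All 10 clock genes passed the filter, with a lowest signal of 1.01 in any library. In LRP1 eKO ECs Clock, Nr1d1 and Cry2 rose and Dbp fell, while the other 6 were not called. The rises were small, with log2 fold changes from 0.17 for Cry2 to 0.41 for Clock, and the fall of Dbp, at -0.58, was the largest change of the members. The 4 calls were 40.0% of the members, beside 41.2% of all genes tested, so the share called was close to the background. Higher calls made up 3 of 10, beside 19.0% of all genes, and lower calls 1 of 10, beside 22.2%. With limma, 0 of 10 members passed the 2-fold threshold that 1.66% of all genes passed. An unadjusted limma p under 0.05 was reached by 5 of 10, beside at least 41.2% of all genes, the share called after adjustment. The groups did not overlap for 5 of 10 members (50%), namely Clock, Npas2, Cry2, Nr1d1 and Dbp, beside 42.6% of all genes. The median log2 fold change was 0.07 over the members and -0.0095 over all genes tested. Without WT library 4 and LRP1 eKO library 2, limma called 2 members higher and 3 lower, beside 2334 and 2708 of all 11391 genes. The counts over all genes are also the background, in that setting, for the lists below. Without WT library 4 alone, 2 members were higher and 3 lower, beside 2206 and 2604 of all genes. Without LRP1 eKO library 2 alone, 2 members were higher and 2 lower, beside 1964 and 2366 of all genes.

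**Figure D1:**
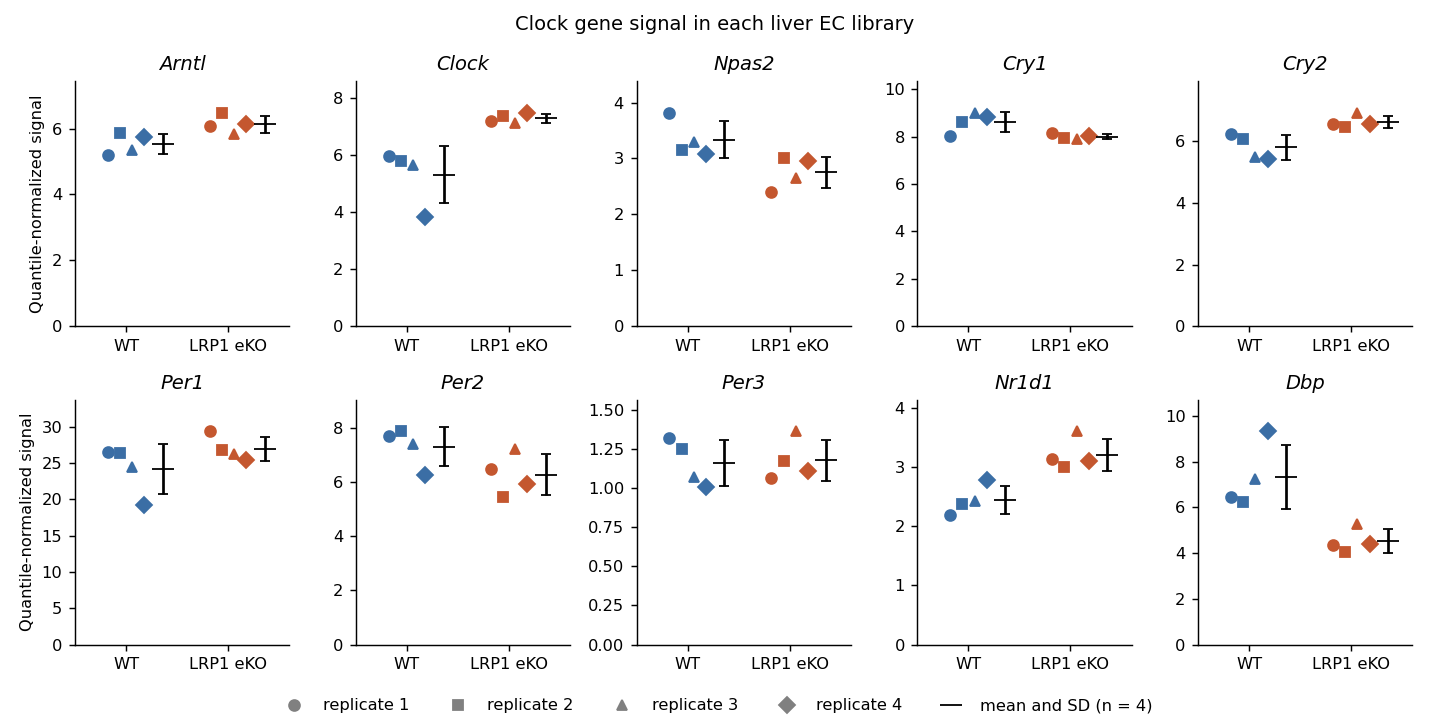
Quantile-normalized signal of each clock gene (y axis, from 0, with its own scale per gene) in the 4 WT and 4 LRP1 eKO libraries (symbols give the replicate number), with the mean and SD of each group beside the points. Dbp lies at 4.07 to 5.28 in every LRP1 eKO library and at 6.24 to 9.32 in every WT library, while Nr1d1, Clock and Cry2 lie higher in every LRP1 eKO library.

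Among the activators, Arntl (ENSMUSG00000055116, chr7:113207465-113314126 of GRCm38, plus strand) encodes BMAL1, the partner that every activator complex shares. Its signal was 5.19, 5.86, 5.36 and 5.73 in WT libraries 1 to 4 and 6.10, 6.48, 5.83 and 6.14 in LRP1 eKO libraries 1 to 4. The groups met at a single point, with LRP1 eKO library 3 just under WT library 2. The log2 fold change was 0.13 (95% interval -0.00075 to 0.26, limma adjusted p = 0.10) and was not called. An antisense transcript, Gm45355, shares 33 of the 7523 exon bases of Arntl.

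Clock (ENSMUSG00000029238, chr5:76209868-76304792, minus strand) encodes the DNA-binding partner of BMAL1. In WT libraries 1 to 4 it had signals of 5.95, 5.80, 5.66 and 3.82, and in LRP1 eKO libraries 1 to 4 of 7.21, 7.36, 7.12 and 7.47. Every LRP1 eKO library was above every WT library, WT library 4 lay well under its group, and the LRP1 eKO libraries were close together, with a coefficient of variation of 2.16% against 18.9% in WT. The rise was 0.41 on the log2 scale (SE 0.11, limma adjusted p = 0.0139), with an exact two-sided permutation p of 0.0286, the smallest that 4 libraries against 4 can give. Without WT library 4 the change was 0.29 (adjusted p = 0.00114, limma). The call was lost with no filter on low genes, at a limma adjusted p of 0.0598.

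Npas2 (ENSMUSG00000026077, chr1:39193731-39363236, plus strand), which can stand in for CLOCK, showed the opposite order. Its signal was 3.81, 3.15, 3.30 and 3.08 in WT libraries 1 to 4 and 2.39, 3.00, 2.65 and 2.96 in LRP1 eKO libraries 1 to 4. Every WT library was above every LRP1 eKO library, though WT library 4 and LRP1 eKO library 2 were close to each other. The log2 fold change of -0.21 (95% interval -0.38 to -0.035) missed the threshold, at a limma adjusted p of 0.0551, with an exact permutation p of 0.0286. Without WT library 4 the limma adjusted p was 0.0423, and without LRP1 eKO library 2 it was 0.0461. The ratio of Clock to Npas2 signal, which compares libraries and not the levels of the genes, ran from 1.24 to 1.84 in WT and from 2.45 to 3.01 in LRP1 eKO libraries.

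Of the repressors, Cry1 (ENSMUSG00000020038, chr10:85131700-85185064, minus strand) encodes a cryptochrome that inhibits the activator complex. Its signals were 8.03, 8.61, 8.99 and 8.83 in the WT libraries and 8.14, 7.95, 7.88 and 8.003 in the LRP1 eKO libraries, in the order of replicates 1 to 4. WT library 1 fell within the narrow LRP1 eKO range and the other WT libraries lay above it. The difference on the log2 scale was -0.095 (95% interval -0.21 to 0.018, limma adjusted p = 0.158), which was not called.

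Cry2 (ENSMUSG00000068742, chr2:92403646-92434043, minus strand), the other cryptochrome, had 6.25, 6.07, 5.49 and 5.42 in WT libraries 1 to 4 and 6.56, 6.46, 6.93 and 6.58 in LRP1 eKO libraries 1 to 4. The groups did not overlap, with WT libraries 3 and 4 lowest. The rise was 0.17 on the log2 scale (SE 0.059, limma adjusted p = 0.0458, exact permutation p = 0.0286). This call was the least stable of the 4, since it was lost in 10 of 18 alternative settings, where the limma adjusted p reached 0.119. Those settings included leaving out any of 7 of the 8 libraries, WT library 1 being the exception. An antisense transcript, D930015M05Rik, shares 295 bases (4.67%) of the Cry2 exons and is not in the table, and use of strand in counting is not stated, so its reads and those of Cry2 cannot be told apart.

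Per1 (ENSMUSG00000020893, chr11:69095217-69109960, plus strand) encodes a period protein, a partner of the cryptochromes in repression. It had signals of 26.5, 26.4, 24.5 and 19.2 in WT libraries 1 to 4 and 29.3, 26.7, 26.2 and 25.5 in LRP1 eKO libraries 1 to 4. The groups overlapped, and WT library 4 was the lowest of all. Its log2 fold change was 0.16 (95% interval -0.054 to 0.37, limma adjusted p = 0.203), and without WT library 4 it was 0.059.

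Per2 (ENSMUSG00000055866, chr1:91415982-91459324, minus strand), the period gene whose loss shortens or abolishes rhythm in mice, had 7.72, 7.87, 7.40 and 6.28 in WT libraries 1 to 4 and 6.48, 5.45, 7.22 and 5.95 in LRP1 eKO libraries 1 to 4. WT library 4 and LRP1 eKO library 3 put the groups in overlap, and the other WT libraries were above every LRP1 eKO library. The log2 fold change was -0.20 (95% interval -0.40 to 0.0051, limma adjusted p = 0.106). Without WT library 4 it was -0.26 and passed, at a limma adjusted p of 0.031. The ratio of Per2 to Per1 signal was 0.291 to 0.327 in WT and 0.204 to 0.276 in LRP1 eKO libraries, with no overlap.

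Per3 (ENSMUSG00000028957, chr4:151003652-151044665, minus strand), the third period gene, had signals just above the filter. Its values were 1.32, 1.25, 1.07 and 1.01 in WT libraries 1 to 4 and 1.06, 1.17, 1.36 and 1.11 in LRP1 eKO libraries 1 to 4. The groups were fully mixed. The log2 fold change was 0.010 (95% interval -0.16 to 0.18, limma adjusted p = 0.922), and its sign turned in 5 of 17 alternatives. Per3 lies within Camta1 on the same strand and shares 0 exon bases with it.

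Nr1d1 (ENSMUSG00000020889, chr11:98767932-98775333, minus strand), the repressor of the second loop, had signals of 2.19, 2.38, 2.44 and 2.78 in WT libraries 1 to 4 and 3.13, 3.00, 3.61 and 3.10 in LRP1 eKO libraries 1 to 4. The highest WT library, number 4, was under the lowest LRP1 eKO library, number 2. Nr1d1 rose by 0.29 on the log2 scale (SE 0.073, 95% interval 0.13 to 0.45, limma adjusted p = 0.0111, exact permutation p = 0.0286). The call held in 17 of 17 alternatives, with log2 fold changes from 0.14 to 0.38. The 3′ ends of Nr1d1 and Thra, a thyroid hormone receptor gene on the opposite strand, share 263 bases, 8.55% of the Nr1d1 exon bases. Thra fell, with a log2 fold change of -0.36 (adjusted p = 0.00252, limma), so the signals of the gene pair moved in opposite directions. Use of strand in counting is not stated, so reads of Nr1d1 and Thra in the shared bases cannot be told apart.

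Dbp (ENSMUSG00000059824, chr7:45705088-45710203, plus strand), the D-box output factor, had 6.47, 6.24, 7.26 and 9.32 in WT libraries 1 to 4 and 4.35, 4.07, 5.28 and 4.42 in LRP1 eKO libraries 1 to 4. No LRP1 eKO library reached the lowest WT library, and WT library 4 was highest. The WT libraries averaged 7.32 ± 1.403 (SD, n = 4) and the LRP1 eKO libraries 4.53 ± 0.522 (SD, n = 4). Dbp fell by 0.58 on the log2 scale (SE 0.11, 95% interval -0.84 to -0.33, limma adjusted p = 0.00317, exact permutation p = 0.0286). The call held in 18 of 18 alternatives, with log2 fold changes from -0.67 to -0.37, and 7.16% of the genes tested had a larger change in either direction. Sphk2, a sphingosine kinase gene on the opposite strand, shares 539 bases (18% of the Dbp exon bases). Its log2 fold change was 0.07 (adjusted p = 0.37, limma). Reads of Dbp and Sphk2 in the shared bases cannot be told apart either.

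**Figure D2:**
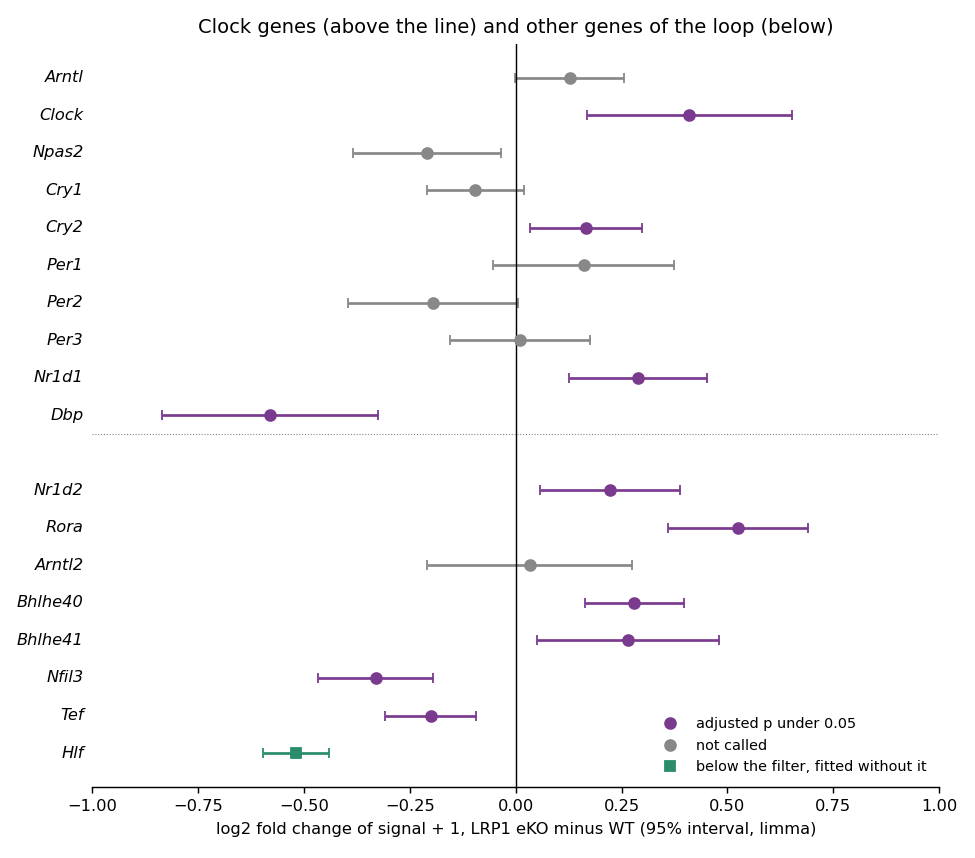
Log2 fold change of signal + 1, LRP1 eKO minus WT (x axis), with its 95% interval from limma, for the 10 clock genes above the dotted line and 8 other transcription factors of the loop below it. Purple points passed an adjusted p of 0.05, grey points did not, and the green square marks Hlf, which was below the filter. Intervals of Clock, Cry2 and Nr1d1 lie above 0 and that of Dbp lies under it.

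Nr1d1 and Dbp, which the same activators drive, thus moved in opposite directions. The ratio of Dbp to Nr1d1 signal was 2.95, 2.62, 2.98 and 3.36 in WT libraries 1 to 4 and 1.39, 1.35, 1.46 and 1.43 in LRP1 eKO libraries 1 to 4. Within each group the libraries were close together, and the groups stood well apart. The ratios given here were chosen after the values were seen and are descriptions without a test.

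To place each preparation between the arms of the clock, the mean log2(signal + 1) of Arntl, Clock and Npas2 was subtracted from that of Nr1d1, Dbp, Per1, Per2 and Per3. This contrast was 0.17, 0.21, 0.22 and 0.35 in WT libraries 1 to 4 and 0.13, -0.067, 0.23 and -0.020 in LRP1 eKO libraries 1 to 4. WT library 4 was highest, LRP1 eKO library 3 lay among the WT libraries, and the spread within LRP1 eKO was wider than within WT. The WT libraries averaged 0.24 ± 0.076 (SD, n = 4) and the LRP1 eKO libraries 0.066 ± 0.13 (SD, n = 4), a difference of -0.17. With Npas2 left out of the activator arm the groups did not overlap, at -0.031 to 0.19 in WT and -0.39 to -0.12 in LRP1 eKO libraries, and the difference was -0.33. With Per1 left out of the other arm the difference was -0.23, and the groups overlapped, at -0.34 to -0.061 in WT and -0.62 to -0.27 in LRP1 eKO libraries. Npas2 and Per1 both had changes opposed to the difference, so leaving either out made it larger. The contrast was not computed without Clock or without Dbp, which had the largest changes of their arms. Whether the difference rests on Clock and Dbp was therefore not tested. Neither arm moved as a block: among the activators Clock rose while Npas2 had a negative log2 fold change, and in the other arm Nr1d1 rose while Dbp fell. Each library was taken at an hour that is not recorded and may differ between libraries. Whether the cells were cultured before RNA was taken is not stated in the sources used here. The signals may thus not show the clock of the mouse at the hour of collection. A difference in phase and a difference in level at the same phase therefore cannot be told apart.

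**Figure D3:**
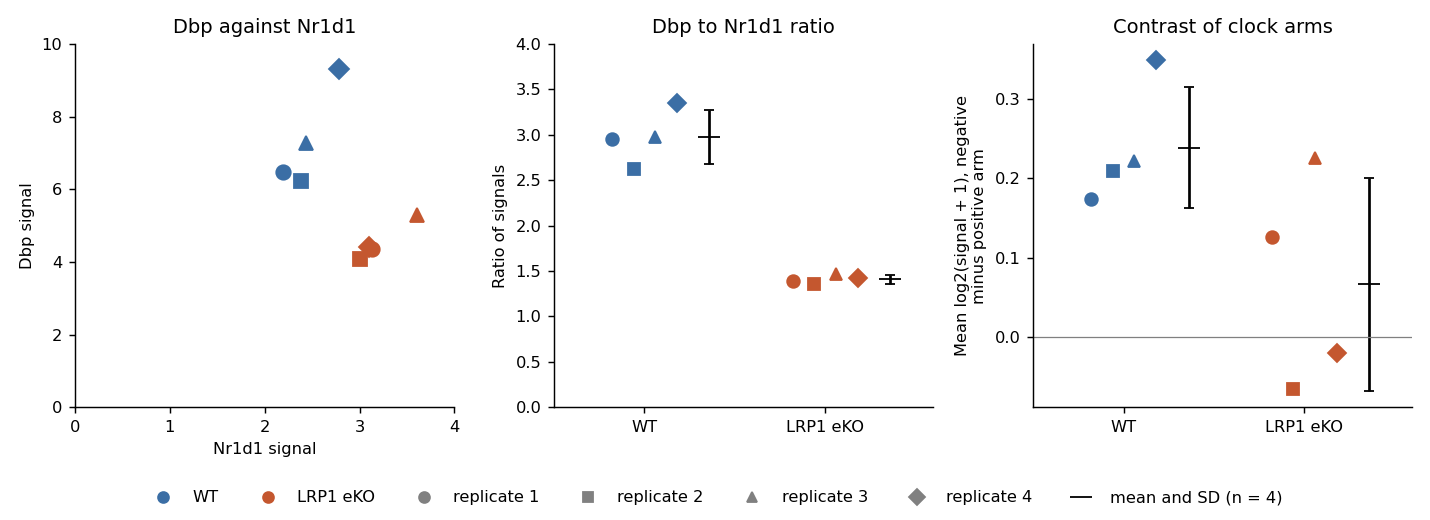
Left, Dbp against Nr1d1 signal in each library. Middle, the ratio of the signals by group, from 2.62 to 3.36 in WT and from 1.35 to 1.46 in LRP1 eKO. Right, the contrast of mean log2(signal + 1) of Nr1d1, Dbp and the Per genes minus that of Arntl, Clock and Npas2, where LRP1 eKO library 3, at 0.23, lies within the WT range. Symbols give replicates, and bars give the mean and SD.

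The remaining transcription factors of the loop moved in both directions as well. Of 12 listed, 10 were in the table and 8 were tested, and 4 rose and 2 fell, beside the 41.2% of all genes that were called. Their median log2 fold change was 0.13. Rora, an activating receptor that competes with REV-ERBα at the AGGTCA half-site, had signals of 1.89, 2.01, 2.23 and 1.61 in WT and 3.34, 3.27, 3.22 and 3.01 in LRP1 eKO libraries 1 to 4. All LRP1 eKO libraries were higher, and the rise was 0.52 on the log2 scale (adjusted p = 4.94e-04, limma). Nr1d2, the close relative of Nr1d1, rose by 0.22 (adjusted p = 0.0368, limma), from 2.19 to 2.74 in WT to 2.67 to 3.24 in LRP1 eKO libraries, with overlap. Arntl2, a relative of Arntl, was not called, at 0.03 on the log2 scale (adjusted p = 0.828, limma).

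Bhlhe40 and Bhlhe41 encode repressors (DEC1 and DEC2) that bind the same E-boxes as CLOCK. Bhlhe40 ran from 29.5 to 32.1 in WT and from 36.2 to 41.0 in LRP1 eKO libraries, a rise of 0.28 without overlap (adjusted p = 0.00249, limma). Bhlhe41 rose by 0.26, close to the threshold (adjusted p = 0.0496, limma), and its groups overlapped.

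The other D-box factors were lower as well. Tef, a PAR bZIP factor of the same family as Dbp, ran from 14.7 to 16.4 in WT and from 12.9 to 13.6 in LRP1 eKO libraries, a log2 fold change of -0.20 with no overlap (adjusted p = 0.00884, limma). Hlf, the third PAR bZIP gene, was below the filter, at 0.806, 0.812, 0.726 and 0.8291 in WT and 0.265, 0.203, 0.224 and 0.317 in LRP1 eKO libraries 1 to 4. Each LRP1 eKO value of Hlf was under every WT value, and fitted without the filter its log2 fold change was -0.52 (adjusted p = 2.06e-04, limma). Nfil3, which encodes E4BP4, the repressor that competes with these factors for D-boxes, also fell, from 30.01 to 32.7 in WT to 22.1 to 26.6 in LRP1 eKO libraries, with a log2 fold change of -0.33 (adjusted p = 0.00226, limma). Rorb was near 0 in every library.

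Kinases, ubiquitin ligases and other proteins that act on the clock proteins were called in both directions. Of 18 listed, 17 were in the table and 16 were tested. Of these, 2 rose and 3 fell, beside 19.0% of all genes higher and 22.2% lower, with a median log2 fold change of 0.018. Without WT library 4 and LRP1 eKO library 2, 3 were called higher and 4 lower. Tipin, a partner of the protein TIMELESS, fell by 0.39 on the log2 scale (adjusted p = 4.28e-04, limma). Usp2, a deubiquitinase that is itself a clock output, ran from 10.98 to 13.4 in WT and from 8.70 to 10.4 in LRP1 eKO libraries, with a log2 fold change of -0.40 (adjusted p = 0.0027, limma). Gsk3b, a kinase that phosphorylates several clock proteins, rose by 0.51 (adjusted p = 0.00797, limma).

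Downstream outputs of the clock were called in both directions, like genes at large. Of 16 output genes listed, 14 were tested. Of these, 4 rose and 4 fell, beside 19.0% of all genes higher and 22.2% lower, with a median log2 fold change of 0.05. Among the genes called, Tef, Nr1d2, Bhlhe41 and Usp2 were already counted in the lists above. Tspan4, a tetraspanin gene, was at 143 to 149 in WT and 101 to 125 in LRP1 eKO libraries, with a log2 fold change of -0.39 (adjusted p = 8.22e-04, limma). Cdkn1a, the cell cycle inhibitor p21 that REV-ERBα represses, rose by 0.31 (adjusted p = 0.00225, limma).

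The cell content of the libraries differed between the genotypes alongside these changes, and in bulk RNA fewer cells of a type and less RNA per cell cannot be told apart. The defining EC markers Pecam1 and Cdh5 were at low signals, 1.53 to 3.85 and 1.26 to 4.99. Col1a2, a collagen gene of fibroblasts and stellate cells and the highest of their list, was at 615.5 to 889. Levels varied widely within both lists. Mean signals ran from 0.416 to 16.4 (Esam) over the EC markers and from 0.0794 to 781 (Col1a2) over the stellate cell and fibroblast markers. Per kilobase of the longest transcript the mean signals were 0.744 for Pecam1, 0.696 for Cdh5 and 146 for Col1a2, and whether the signal had already been divided by length is not stated. The EC label is therefore kept as the study's name for the preparation. The summed signal of the 10 EC markers was 46.67 to 49.99 in WT and 55.8 to 71.0 in LRP1 eKO libraries, and 3 of 8 tested rose, or 5 of 8 without WT library 4 and LRP1 eKO library 2. That of 10 stellate cell and fibroblast markers was 2001.5 to 2312.6 in WT and 1757.6 to 2214.5 in LRP1 eKO libraries, with 1 of 8 tested higher and 2 lower, or 2 higher and 3 lower without those libraries.

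Hepatocyte markers, the genes of the main liver cell in which Dbp, Tef and Hlf are strongly rhythmic, were lower with Dbp in LRP1 eKO, where 7 of 7 tested fell, beside 22.2% of all genes. Trf, the transferrin gene, made up most of their summed signal, at 1358 to 1451 in WT and 581 to 862 in LRP1 eKO libraries. The other 9 markers summed to 94.8 to 141 in WT and 34.8 to 45.4 in LRP1 eKO libraries, so both sums were lower in every LRP1 eKO library. Alb, the albumin gene, was far under Trf, at 15.7 to 24.7 in WT and 5.70 to 6.83 in LRP1 eKO libraries. Cyp2e1, below the filter, had the higher mean in LRP1 eKO, at 0.0653 against 0.0378 in WT. Apoa2, at 0.779 to 1.43 in LRP1 eKO libraries, needed WT to pass the filter. Whether the Trf signal came from hepatocytes was not tested. Among WT libraries the markers went both ways beside Dbp. Library 4, which had the highest Dbp signal, was lowest for 5 of the 7 tested markers and for the sum without Trf. The same library was highest for Trf, at 1451, and for the sum of all 10 markers, at 1545.6. Skeletal muscle markers summed to 34.1 to 59.2 in WT and 6.31 to 8.21 in LRP1 eKO libraries, and WT library 4 was highest in this sum. Of these markers 5 of 5 tested were lower, beside 22.2% of all genes. Atp2a1 and Tnnc2 stayed under a signal of 1 in every LRP1 eKO library and passed the filter through WT alone. Tnnt3, at 0.767 to 1.14 in LRP1 eKO libraries, also needed WT to pass. The direction of these genes was thus tied to the filter. The macrophage sum was 112 to 219 in WT and 52.1 to 721 in LRP1 eKO libraries, lowest in LRP1 eKO library 2, and 1 of 8 tested rose with all libraries, while 8 of 8 rose without WT library 4 and LRP1 eKO library 2. Of 8 sinusoidal EC markers 4 were tested, of which 1 rose with all libraries and 4 rose without those libraries. The 1 that rose with all libraries, Oit3, was at 0.483 to 0.729 in WT and 1.91 to 3.46 in LRP1 eKO libraries. It passed the filter through LRP1 eKO alone, so its direction was tied to the filter. Over all genes 19.0% rose with all libraries, and 2334 of 11391 without WT library 4 and LRP1 eKO library 2. Of the lymphocyte markers, 0 of 10 passed the filter and 4 of them were listed at 0 in every library, and 1 erythroid marker was tested and fell, a call lost without those libraries. The part of these cell types in the clock gene differences was not tested.

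**Figure D4:**
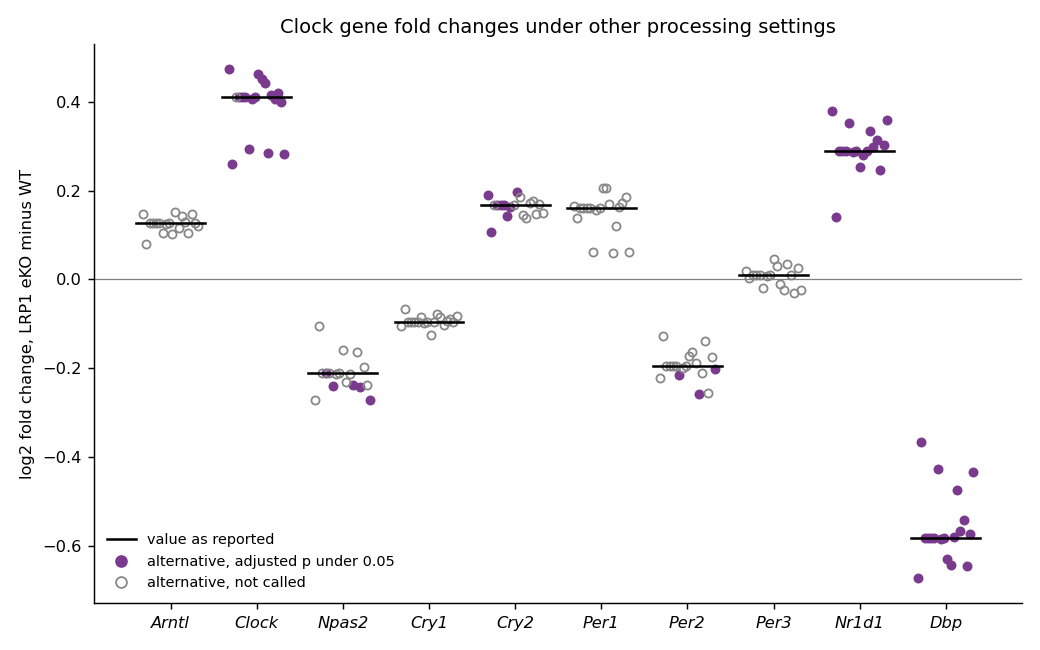
Log2 fold change, LRP1 eKO minus WT (y axis), of each clock gene as reported (black line) and under each alternative setting (points, filled where the adjusted p was under 0.05). Dbp stays between -0.67 and -0.37 and is called throughout, Nr1d1 is called throughout, and Cry2 is open in 10 of 18 settings.

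Across the alternative settings, which changed the pseudocount, filter, variance model, weights, centring, replicate block or libraries, 9 of the 10 members kept their direction and Per3 did not. Arntl, Per1, Cry1 and Per3 were not called in any of them. Their lowest limma adjusted p-values were 0.0704 for Arntl, 0.111 for Per1, 0.092 for Cry1 and 0.678 for Per3.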

How the data were processed

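Liver EC mRNA from 4 WT and 4 LRP1 eKO libraries was profiled, and each column was matched to its genotype and replicate by its label. The authors deposited a quantile-normalized signal for 22520 genes. The methods state that reads were mapped to mm10 with STAR and counted with featureCounts for an edgeR test, while the submitters' processing notes name TopHat2, Cufflinks and mm10. Neither describes the table, whose unit before normalization is not stated. Depth is unknown, and a global shift between genotypes is removed by such normalization.

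Log2(signal + 1) was tested for genotype with limma 3.58.1 (R 4.3.3) and a mean-variance trend, and p-values were adjusted by Benjamini-Hochberg over the 11391 genes that reached a signal of 1 in 4 or more libraries. Genes under this filter came from a fit without it. Exact two-sided permutation tests used all 70 assignments of 8 libraries. The fit was tested on simulated data of 11391 genes for this comparison: it recovered 84 of 100 genes shifted by 0.5 and 93 of 100 shifted by 1 (log2), and called 7 of 11191 that were not shifted. The simulated noise was normal and independent between genes and libraries, and far fewer genes were shifted than were called in these data. The rates may therefore not hold for the real libraries.

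The members and lists were chosen with earlier results of these data known. All members were named, with the tested loop transcription factors (1 of them is not reported here), the 3 genes of smallest adjusted p from other lists of clock genes, and genes annotated as overlapping a member. From other lists up to 3 genes were named by smallest adjusted p or highest mean, except Pecam1 and Cdh5, which were named as defining markers. Other exceptions were genes named for how they passed the filter, and Cyp2e1, named for its opposite direction. Positions came from GENCODE M21 on GRCm38. Alternative settings were a pseudocount of 0.1 or 5, no filter on low values, a mean signal of at least 5, no trend, a robust trend, array weights, centring on a mean trimmed by 30% at each end, the replicate block, a ratio of arithmetic means and libraries left out. Plots used matplotlib 3.10.9 (Python 3.11.15).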

Additional observations from a re-analysis of the deposited data

Results flagged for a closer look

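Clock had 1 WT library far from the others. Its signal was 5.95, 5.80 and 5.66 in WT libraries 1 to 3 and 3.82 in WT library 4, whose gap to the next library was 0.861 of the whole WT range. In LRP1 eKO ECs, Nr1d2 had a low library, with 2.67 in library 2 against 3.15, 3.17 and 3.24 in libraries 1, 3 and 4, a gap of 0.845 of the range. Of 44 groups examined for such a gap, 2 were above the 95% critical value, and chance alone gives about 2.2.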

How the results depend on the processing

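Dbp was called in 18 of 18 alternatives and Nr1d1 in 17 of 17, since a mean signal of at least 5 left out Nr1d1, Npas2 and Per3, while Clock lost its call with no filter and Cry2 lost it in 10 of 18. Of the clock genes, 1 was called higher with no filter, and 2 (limma without trend) or 3 (array weights, and without both WT library 4 and LRP1 eKO library 2) were called lower. Over all genes, 1818 of 22520 were called higher with no filter. Of 11391 genes, 2495 were called lower without trend, 3076 with array weights and 2708 without both libraries. Leaving out 1 library at a time gave 2 to 3 clock genes called higher and 1 to 3 called lower. Npas2 passed without trend (adjusted p = 0.0457, limma), with array weights (0.0169) and without both libraries (0.0274), and Per2 with array weights (0.022) and without both (0.042). The log2 fold change of Per3 turned to -0.019 with array weights and -0.025 without both libraries, and lay between -0.030 and 0.045 with 1 library left out, being -0.0096 without WT library 3, -0.024 without WT library 4 and -0.030 without LRP1 eKO library 3. Over all genes at 2-fold, 99 were higher and 90 lower, against 149 and 166 with a pseudocount of 0.1, 40 and 26 with a pseudocount of 5, and 89 to 174 and 83 to 105 with 1 library left out. A mean signal of at least 5 gave 63 higher, and leaving out both libraries gave 163 higher. With 1 library left out, 1715 to 2206 genes were called higher and 2025 to 2604 lower without the fold threshold. Leaving out both libraries moved the calls to 5 of 8 EC markers, 4 of 4 sinusoidal EC markers and 8 of 8 macrophage markers, each higher in LRP1 eKO, to 5 of 8 stellate cell and fibroblast markers, 2 higher and 3 lower, and to 0 of 1 erythroid markers. The difference between the groups in the contrast of the clock arms was -0.33 without Npas2, and it was not computed without Clock or without Dbp. The causes were not tested. Same-numbered libraries did not deviate together, with correlations of -0.086, -0.13, 0.18 and 0.038 for replicates 1 to 4. With the replicate block, 2 clock genes were called higher and 1 lower, Cry2 having a limma adjusted p of 0.0949, and 1975 genes were higher and 2210 lower over all. Depth is unknown, so counting error could not be given, and changes of low genes such as Per3 and Hlf are understated on this scale.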

Other observations

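Per1 is also a target of the glucocorticoid receptor and of signals that induce immediate early genes, and these lists were read beside it. Of 12 glucocorticoid receptor targets tested, 3 rose and 2 fell, beside 19.0% of all genes higher and 22.2% lower. Their median log2 fold change was -0.00081, beside -0.0095 over all genes. Without WT library 4 and LRP1 eKO library 2, 3 were called higher and 4 lower. Dusp1, a phosphatase of MAP kinases, ran from 12.8 to 16.9 in WT and from 25.4 to 28.5 in LRP1 eKO libraries, with a log2 fold change of 0.76 (adjusted p = 9.64e-05, limma). The metallothionein genes Mt1 and Mt2 fell, with log2 fold changes of -0.33 and -0.25 (adjusted p = 5.59e-04 and 0.00152, limma). Of 15 immediate early genes tested, 8 rose and 1 fell, beside the same shares of all genes, with a median of 0.19. Without WT library 4 and LRP1 eKO library 2, 6 were called higher and 1 lower. Atf3, a stress-induced transcription factor, ran from 3.64 to 4.37 in WT and from 6.52 to 10.5 in LRP1 eKO libraries, a log2 fold change of 1.03 (adjusted p = 1.99e-04, limma), and Jun rose by 0.46 (adjusted p = 5.19e-04, limma). Dusp1 belongs to both lists, and Per1 itself, with a log2 fold change of 0.16, was not called.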
